A study of Mus musculus with 13 samples.

Results

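The genes described here are 33 complement and coagulation genes, taken by symbol from the 46958 genes of a count table made from RNA of mouse glomeruli, the filtering units of the kidney. They are 8 genes of the initiation of the classical and lectin pathways, 4 of the alternative pathway and C3, and 3 of the terminal pathway. The others are 2 receptors, 7 regulators, 3 coagulation factors and 6 coagulation inhibitors or genes of the plasmin system, with Gas6 placed among these 6. Of the 33, 26 passed the filter on low counts and were tested, and 7 did not.

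Complement is a cascade of plasma and cell-surface proteins. C1q binds antibody or altered surfaces and activates the proteases C1r and C1s, mannose-binding lectin acts through the proteases MASP1 and MASP2, and both routes cleave C4 and C2 to form an enzyme that cleaves C3. Coagulation starts when tissue factor, the product of F3, meets factor VII, and ends in fibrin that factor XIII crosslinks and plasmin dissolves. Most of these proteins are made in the liver, but cells of the glomerulus express several, and membrane regulators such as CD55, CD59 and the product of Cr1l (Crry) keep complement from acting on the capillary wall.

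In light chain deposition disease (LCDD), antibody light chains made by a single clone of plasma cells accumulate in basement membranes, and the study asked whether such free chains are toxic to glomeruli. Mice of mixed C57/BL6x129/SVxBALB/c background were 6 months old, and their glomeruli were isolated with beads. The 3 groups were the genotype labelled kFRA (LCDD), with 4 libraries, the genotype labelled DH-LMP2A, with 4 libraries, and wild type (WT), with 5 libraries. Every LCDD and DH-LMP2A library pooled 3 mice, as did WT replicates 1 and 2, while WT replicates 3, 4 and 5 came from 1 mouse each. The labels name DH-LMP2A without describing it (LMP2A is a viral membrane protein that signals like a B cell receptor), and do not say whether the LCDD mice carry it too, what drives either allele, or whether any mouse entered more than 1 pool. The p-values therefore measure only the spread between these libraries. A 6-digit code in the sample titles is shared across genotypes: in ascending order of the codes, replicates 1 to 4 of LCDD and of DH-LMP2A carry the first to the fourth code, WT replicates 1 and 2 carry the first and the third, and WT replicates 3 to 5 all carry the fourth. The labels do not say what the code stands for.

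Total counts per library ran from 16687509 to 30587890, and 3 counts, taken as the floor of detection, correspond to 0.0970 to 0.185 CPM (counts scaled to the total of the library). Podocyte, endothelial and mesangial markers (8 genes each) were all above the filter, and podocyte markers summed to 6973 to 30244 CPM in LCDD, 15634 to 30887 in DH-LMP2A and 14646 to 33081 in WT. In each genotype the library of the first code had the lowest podocyte sum. Markers of the proximal tubule, a neighbouring part of the nephron, summed to 525 to 1673 CPM in LCDD, 457 to 3547 in DH-LMP2A and 107 to 2497 in WT. Counts of the Y-linked gene Ddx3y were 0, 0, 0 and 1 in 4 WT libraries and 197 in WT replicate 2, against 208 to 2296 in the other genotypes. The comparisons with WT thus also set libraries with different shares of male mice against each other. Under the first to the fourth code, Ddx3y had 2214, 296, 1861 and 208 counts in LCDD and 1336, 2296, 435 and 1185 in DH-LMP2A. Same-code libraries of LCDD and DH-LMP2A were therefore not matched in their share of male mice either. WT replicate 2 stood apart in immune genes: it was the highest of all 13 libraries in 16 of 20 interferon-response genes and in 8 of 12 tested macrophage genes. The C1q chains, C1s1, Serping1, C4b, Cfp and F10 are given below with and without it.

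Levels were compared between genes as RPKM (CPM divided by the exon length in kilobases). Cd59a, the membrane inhibitor of the terminal complex, was the most abundant member, with a mean of 152 RPKM over the 13 libraries. Gas6, a vitamin K-dependent ligand of the TAM receptors, followed with 85.7 RPKM and Pros1 (protein S, an anticoagulant cofactor) with 72.5. Serping1 (C1 inhibitor) and C1s1, the protease it inhibits, were close to each other at 52.8 and 52.3 RPKM. Cd55 had 31.1, Clu 21.5, Cr1l 15.9, C1ra 15.0, Tfpi 10.99 and F3 10.4 RPKM. Apart from the ligand Gas6, the abundant members were thus mostly regulators and inhibitors, with C1s1 and C1ra the most abundant proteases. The C1q chains had 1.72 to 3.61 RPKM, C3 4.08, and C4b, C2 and Cfb 0.344 to 0.833. Neighbours in this order overlapped: Cd59a alone ran from 56.0 to 236 RPKM across libraries, and Gas6 from 46.1 to 127.

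**Figure D1:**
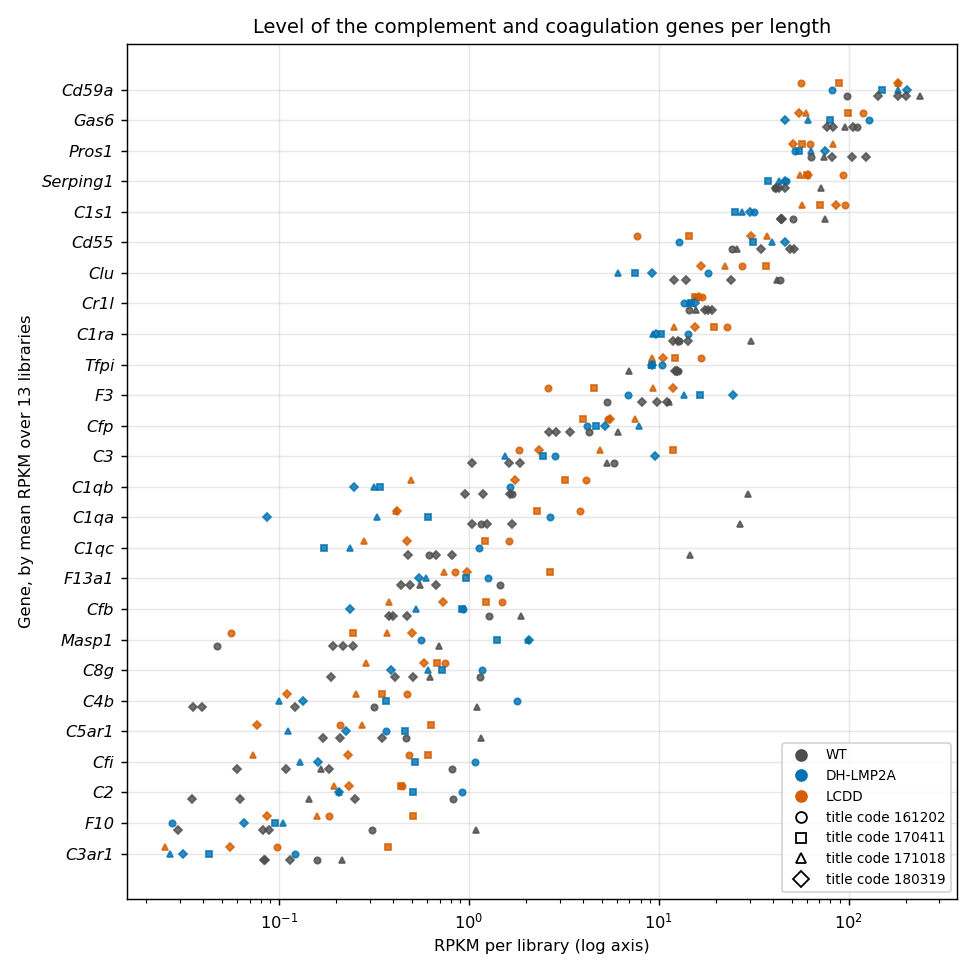
RPKM of the 26 tested members in each of the 13 libraries (log axis, values of 0 left out), coloured by genotype with a symbol for the title code, ordered by the mean over all libraries. Cd59a (152 RPKM), Gas6 (85.7), Pros1 (72.5) and Serping1 (52.8) lie at the top, and the C1q chains (1.72 to 3.61) are highest in WT replicate 2.

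The 7 members under the filter were products best known from plasma or fat. Plg (plasminogen) reached at most 1 count in any library, C6 2, A2m (alpha-2-macroglobulin) 3, C7 4, Serpind1 (heparin cofactor II) 10, Vtn (vitronectin) 12 and Cfd (factor D, the adipsin of fat cells) 15. Cfd had 0 counts in all 4 DH-LMP2A libraries, 0 to 0.230 CPM in LCDD and 0 to 0.485 CPM in WT. At this depth no difference between genotypes could be detected for these genes.

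Between LCDD and DH-LMP2A, 1 of the 26 tested members passed the test and rose: C1s1, at an adjusted p under 0.05 in edgeR's quasi-likelihood test, where 2.00% of all 16738 tested genes were called. A total of 6 members had an unadjusted p under 0.05, 4 higher and 2 lower in LCDD, where 13.1% of all genes did, and the median log2 fold change of the 26 was 0.25, against -0.01 over all tested genes. Deviations of libraries with the same title code correlated at 0.153 to 0.593 in these 2 genotypes. With the code as a block in a fit of all libraries, WT included, 3 members were called, where 6.10% of all genes were called. They were C1s1, higher in LCDD, and Masp1 and F3, lower in LCDD. The libraries of the 2 genotypes did not overlap for 4 members, C1s1, Serping1 and Cr1l being higher and Masp1 lower in LCDD, where 7.62% of all genes did not overlap. The share of the members thus rests on 1 to 4 genes of 26 in each count.

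Between LCDD and WT, 0 of the 26 members were called by edgeR or by DESeq2, where edgeR called 1.84% and DESeq2 4.34% of all genes. An unadjusted edgeR p under 0.05 was found for 3 members, where 2002 of all 16738 tested genes had one, and the median log2 fold change was -0.04. Without WT replicate 2, 8 of the 26 members had the other sign in this comparison: the 3 C1q chains, C4b, F10, Clu, Tfpi and C8g. No member had libraries that did not overlap, where 4.59% of all genes did not. Between DH-LMP2A and WT, edgeR called 0 members, where 0.627% of all genes were called, while 9 had an unadjusted p under 0.05, 1 higher and 8 lower in DH-LMP2A, where 12.5% of all genes did. Without WT replicate 2, 8 members had an unadjusted p under 0.05, 3 higher and 5 lower, where 14.5% of all genes did, and the C1q chains and F10 were no longer among them. DESeq2 called 4 members (Masp1 higher and C1s1, Clu and C1qb lower), where it called 2.74% of all genes. C1s1 was the single member whose libraries did not overlap there, where 4.96% of all genes did not. The comparisons share libraries, so their results are not independent of each other.

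**Figure D2:**
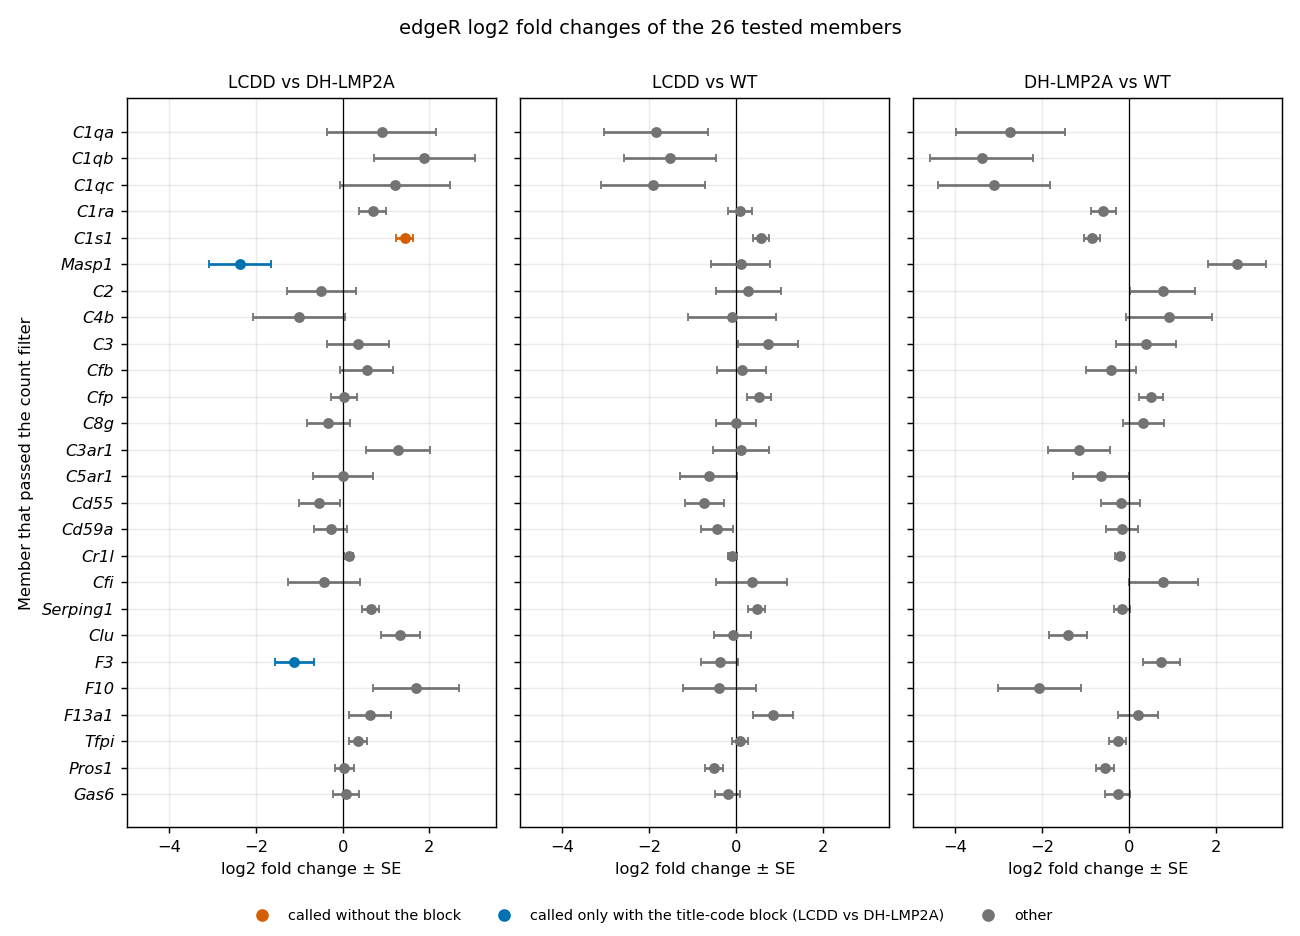
The log2 fold change ± SE of each tested member in the 3 comparisons, from edgeR. In LCDD against DH-LMP2A, C1s1 (1.43) was called without the block, and Masp1 and F3 are marked as called once the title code entered as a block. The comparisons with WT are drawn without the block, and no member was called in them in that fit.

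C1s1 encodes C1s, the protease of the C1 complex that cleaves C4 and C2. Its gene lies at chr6:124530345-124542359 on the minus strand (GRCm38, as deposited). C1s1 had 298, 221, 177 and 267 CPM in LCDD replicates 1 to 4, 98.6, 78.3, 85.4 and 94.6 CPM in DH-LMP2A, and 158, 233, 139, 138 and 137 CPM in WT. The lowest LCDD library was thus above the highest DH-LMP2A library, and all DH-LMP2A libraries were below all WT libraries. LCDD overlapped WT because of WT replicate 2. Mean levels were 241 ± 52.9 CPM for LCDD (SD, n = 4), 89.2 ± 9.14 CPM for DH-LMP2A (SD, n = 4) and 161 ± 41.2 CPM for WT (SD, n = 5). C1s1 was higher in LCDD than in DH-LMP2A by 1.43 ± 0.20 (log2, SE; edgeR adjusted p = 0.00336), with a higher value under each of the 4 title codes, and passed the threshold in all 21 alternatives. Against WT, C1s1 was higher in LCDD by 0.58 ± 0.18 (adjusted p = 0.164), and by 0.72 ± 0.15 (adjusted p = 0.0314) without WT replicate 2. That was the only 1 of 20 alternatives in which it was called. Over the 20, the difference between LCDD and WT ran from 0.17 to 0.72, with adjusted p up to 0.939. C1s1 was lower in DH-LMP2A than in WT by a log2 fold change of -0.85 ± 0.19 (adjusted p = 0.0684), which passed the threshold without WT replicate 1 (-0.86, adjusted p = 0.0488), with DESeq2 (-0.86, adjusted p = 0.00177) and in 1 further alternative.

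Summed levels of 2 marker lists did not overlap between LCDD and DH-LMP2A either. The 20 interferon-response genes summed to 778 to 1557 CPM in LCDD, 517 to 761 in DH-LMP2A and 639 to 2517 in WT; edgeR called 0 of 20 between LCDD and DH-LMP2A, and 9 had an unadjusted p under 0.05, all higher in LCDD, where 13.1% of all genes had one. The 8 mesangial markers summed to 3434 to 5278 CPM in LCDD, 2632 to 3216 in DH-LMP2A and 2776 to 3412 in WT, with 0 of 8 called by edgeR and 5 at an unadjusted p under 0.05, 4 higher and 1 lower in LCDD. A single gene, Itga8, was the largest part of each mesangial sum, with 1470 to 3006 CPM in LCDD and 960 to 1339 in DH-LMP2A. It was the only 1 of the 8 markers whose libraries did not overlap between LCDD and DH-LMP2A. No gene of either list was at 0 in all libraries, and their part in the C1s1 result was not tested. In RNA of whole glomeruli, fewer cells of a type and less RNA per cell cannot be told apart.

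The nearby gene C1s2, a close relative of C1s1 on the same chromosome (chr6:124624625-124636085, minus strand), moved the other way. C1s2 had 1.92, 1.77, 1.72 and 2.13 CPM in LCDD, 11.8, 7.14, 8.27 and 10.4 in DH-LMP2A, and 0.938, 2.72, 5.88, 7.51 and 6.44 in WT. All DH-LMP2A libraries were above all LCDD libraries. WT was split between its pools, at 0.938 and 2.72 CPM, and its single mice, at 5.88 to 7.51 CPM. LCDD differed from WT by -1.31 ± 0.46 (log2, SE; edgeR adjusted p = 0.21), and by 0.0478 without the single mice. C1s2 fell in LCDD relative to DH-LMP2A by a log2 fold change of -2.32 ± 0.48 (edgeR adjusted p = 0.0294). That call was lost in 7 of 20 alternatives, each of them without 1 LCDD or DH-LMP2A library, with adjusted p up to 0.0856. Of the 75-base windows in C1s1 transcripts, 13% also occur in C1s2, and how such reads were counted is not given in the sources used here. With both genes summed, the difference between LCDD and DH-LMP2A was 1.30 ± 0.19 (adjusted p = 0.0056), and C1s2 held 0.589% to 10.7% of the summed counts.

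The 250 bases before the annotated starts of C1s1 and C1s2, from RefSeq on GRCm38.p6, are shown because these relatives differed in opposite directions, and the same stretch of Masp2 because it had the largest difference among the genes named. The C1s1 stretch is chr6:124542360-124542609 (minus strand), that of C1s2 is chr6:124636086-124636335 (minus strand) and that of Masp2 is chr4:148602294-148602543 (plus strand). Each lies outside the annotated gene span and is written 5′ to 3′ on the gene's strand. Capitals mark a match to TTGCNNAA, a C/EBP motif, on the opposite strand in C1s1 and a match to TTCNNNGAA, the gamma-activated site of STAT factors, in Masp2; C1s2 held no match to any motif searched.
C1s1: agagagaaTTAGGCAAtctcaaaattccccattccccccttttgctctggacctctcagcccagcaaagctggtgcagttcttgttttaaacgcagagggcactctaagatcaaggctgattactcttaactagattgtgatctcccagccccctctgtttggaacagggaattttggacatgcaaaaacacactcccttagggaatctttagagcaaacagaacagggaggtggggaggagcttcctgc
C1s2: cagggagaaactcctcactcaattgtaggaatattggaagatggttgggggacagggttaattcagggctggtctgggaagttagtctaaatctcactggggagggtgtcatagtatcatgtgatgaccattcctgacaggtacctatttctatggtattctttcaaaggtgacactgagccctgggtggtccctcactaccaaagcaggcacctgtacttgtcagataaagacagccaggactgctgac
Masp2: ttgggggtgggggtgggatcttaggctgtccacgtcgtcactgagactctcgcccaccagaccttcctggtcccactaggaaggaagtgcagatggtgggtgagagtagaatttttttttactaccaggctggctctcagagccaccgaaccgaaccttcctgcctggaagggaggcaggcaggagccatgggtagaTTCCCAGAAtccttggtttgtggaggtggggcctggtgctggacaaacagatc

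The C1s1 match starts 242 bases and the Masp2 match 53 bases before the gene's start. Another window of C1s1, from a start further downstream (chr6:124542322-124542571), held no match to any motif searched. On both strands, TTGCNNAA occurs in 9.56% of 32851 windows of this length in the table, TTCNNNGAA in 7.02%, the core of the interferon-stimulated response element in 2.98% and GAGGAA (the core of PU.1 sites) in 23.3%. Promoters were matched for 23 of the 33 members, in 27 windows. Of those windows, 2 held TTGCNNAA (C1s1 and C3), 2 held TTCNNNGAA (C7 and Pros1), 1 held the interferon-stimulated core (Cd59a) and 5 held GAGGAA (C1qb, C1qc, Cd59a, F13a1 and Tfpi). These are matches of letters, and C1s1 and C1s2 shared 140 identical bases of 250 when aligned, against 147 for the unrelated promoters of C1s1 and F3.

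C1ra, the partner protease C1r, had 67.9, 58.2, 35.8 and 46.4 CPM in LCDD, 42.3, 30.5, 27.8 and 28.6 in DH-LMP2A, and 38.2, 90.7, 37.4, 35.1 and 42.2 in WT. C1ra overlapped between LCDD and DH-LMP2A and was highest in WT replicate 2. The difference between LCDD and DH-LMP2A was 0.69 ± 0.30 (log2, SE; edgeR adjusted p = 0.343). Of its 75-base windows, 42.4% also occur in C1rb, so its level is uncertain, although the summed counts of both genes gave 0.63 ± 0.29 (adjusted p = 0.382).

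Serping1 encodes the inhibitor that C1r and C1s have in common. It had 218, 141, 129 and 142 CPM in LCDD, 108, 86.9, 100.02 and 108 in DH-LMP2A, and 95.4, 166, 99.2, 107 and 96.0 in WT. Every LCDD library was above every DH-LMP2A library, and WT replicate 2 was the single WT library in the LCDD range. Serping1 differed between LCDD and DH-LMP2A by 0.64 ± 0.20 (edgeR adjusted p = 0.146), which passed the threshold with WT replicate 2 left out of the whole fit (0.62 ± 0.15, adjusted p = 0.0498) and with a Y-linked covariate (0.74, adjusted p = 0.0358). Against WT, the difference was 0.48 ± 0.19 (adjusted p = 0.298), and 0.63 ± 0.15 (adjusted p = 0.0476) without WT replicate 2, but -0.10 ± 0.24 (adjusted p = 0.911) with a Y-linked covariate.

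Masp1, a protease of the lectin pathway, was near the floor in some libraries. It had 0.153, 0.677, 1.02 and 1.38 CPM in LCDD, 1.53, 3.89, 5.65 and 5.68 in DH-LMP2A, and 0.129, 1.91, 0.600, 0.671 and 0.527 in WT. In each genotype the library of the first code was the lowest, and the DH-LMP2A library was above the LCDD library under all 4 codes. The log2 fold change of LCDD against DH-LMP2A was -2.37 ± 0.72 (edgeR adjusted p = 0.126) without the block and -2.48 ± 0.38 (adjusted p = 0.006) with it. Without the block, the difference from DH-LMP2A was also called by DESeq2 (adjusted p = 0.0198), with a proximal tubule covariate (adjusted p = 0.0119) and without the libraries of the first code (adjusted p = 0.0381). Between DH-LMP2A and WT, Masp1 differed by 2.48 ± 0.67 (adjusted p = 0.139), which was called in 4 of 20 alternatives, DESeq2 among them (2.47, adjusted p = 0.0136).

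**Figure D3:**
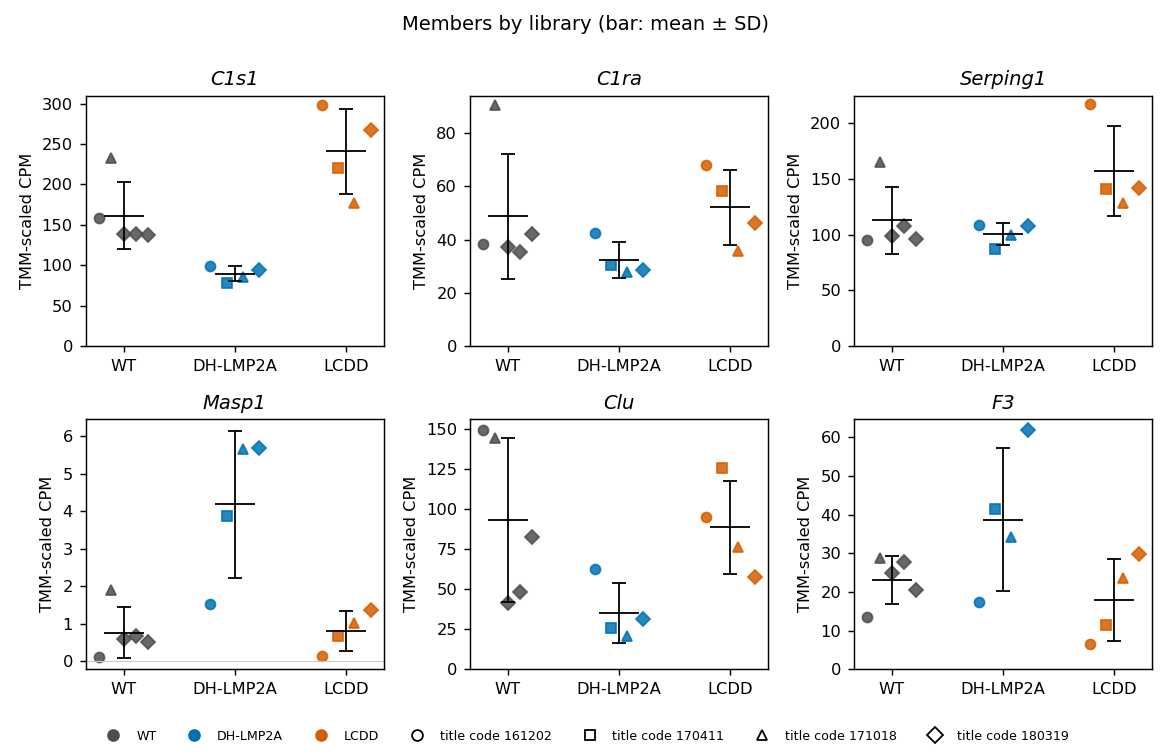
TMM-scaled CPM of 6 members in each library (points, with a symbol for the title code) with the mean ± SD per genotype. C1s1, Serping1 and Masp1 do not overlap between LCDD and DH-LMP2A, and WT replicate 2 is the highest WT library for C1s1 (233 CPM), C1ra (90.7) and Serping1 (166).

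The 3 chains of C1q, which in tissue come mainly from macrophages, were low in all libraries but 1. C1qa had 3.99, 2.37, 0.431 and 0.434 CPM in LCDD, 2.77, 0.629, 0.342 and 0.0895 in DH-LMP2A, and 1.20, 27.7, 1.08, 1.30 and 1.74 in WT. C1qb had 4.49, 3.498, 0.538 and 1.89 CPM in LCDD, 1.79, 0.370, 0.342 and 0.268 in DH-LMP2A, and 1.84, 31.9, 1.04, 1.79 and 1.30 in WT. C1qc had 3.14, 2.33, 0.538 and 0.907 CPM in LCDD, 2.17, 0.333, 0.456 and 0 in DH-LMP2A, and 1.20, 28.2, 0.920, 1.30 and 1.58 in WT. WT replicate 2 was over 27 CPM for all 3 chains, where no other library reached 5. LCDD was higher than DH-LMP2A under all 4 title codes for each chain, by 0.90 ± 1.25 for C1qa, 1.88 ± 1.17 for C1qb and 1.20 ± 1.27 for C1qc (log2, SE), with edgeR adjusted p from 0.555 to 0.823. Several of these values lay near or under the floor. Under the third code, the chains had 8 to 10 counts in LCDD and 6 to 8 in DH-LMP2A. DH-LMP2A replicate 4 had 2, 6 and 0 counts for C1qa, C1qb and C1qc. The sign of the comparison with WT depended on 1 library. The log2 fold changes of LCDD against WT were -1.84, -1.52 and -1.91 with all libraries, and 0.41, 0.77 and 0.45 without WT replicate 2 (adjusted p from 0.66 to 0.894). Those of DH-LMP2A against WT were -2.74, -3.40 and -3.12 with all libraries (unadjusted p = 0.0483, 0.0134 and 0.0308 in edgeR), and -0.44, -1.08 and -0.72 without WT replicate 2 (adjusted p from 0.504 to 0.858, none with an unadjusted p under 0.05). DESeq2 called C1qb in the latter comparison with all libraries (-3.43 ± 0.97, adjusted p = 0.0221).

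The 14 macrophage markers, of which 12 passed the filter, summed to 401 to 713 CPM in LCDD, 258 to 469 in DH-LMP2A and 459 to 549 in WT. A single gene, Mrc1, was the largest part of each sum, so these ranges largely follow it. Mrc1 had 281 to 512 CPM in LCDD, 145 to 249 in DH-LMP2A and 190 to 359 in WT, with WT replicate 2 the lowest WT library. The mean log2 CPM of the 12 tested markers was 4.43 in WT replicate 2 and between 2.45 and 3.51 in the other WT libraries. The interferon-response genes summed to 2517 CPM in WT replicate 2, against 639 to 751 in the other WT libraries. None of these markers was at 0 in all libraries, and their part in the C1q values was not tested.

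**Figure D4:**
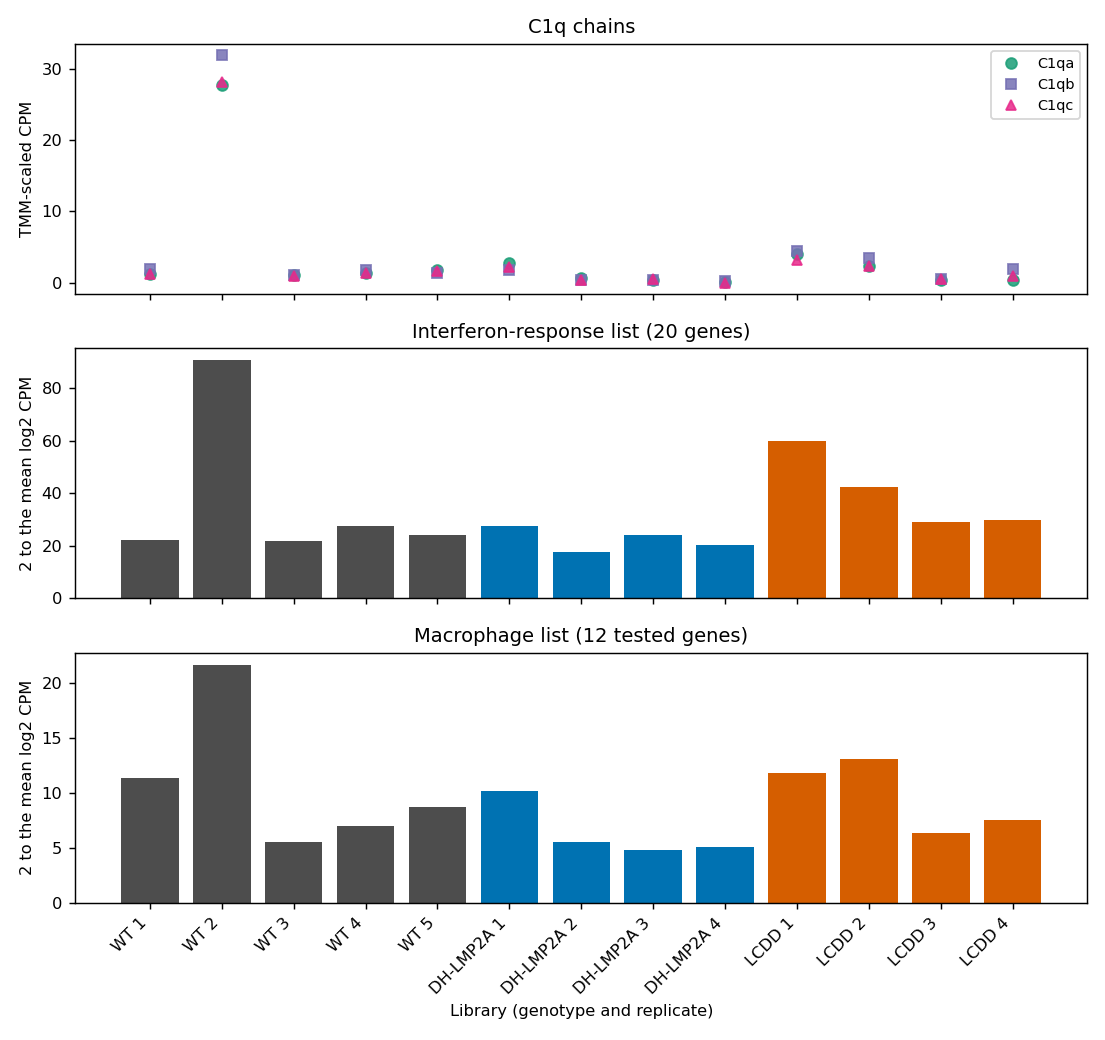
TMM-scaled CPM of the C1q chains in each library (top), and 2 to the power of the mean log2 CPM of the interferon-response list (middle) and of the macrophage list (bottom). WT replicate 2 is the highest library in all 3 panels, with 27.7, 31.9 and 28.2 CPM for C1qa, C1qb and C1qc.

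C4b and C2, the substrates of C1s, passed no test. C4b had 2.68, 1.99, 1.45 and 0.631 CPM in LCDD, 10.2, 2.07, 0.571 and 0.761 in DH-LMP2A, and 1.81, 6.30, 0.200, 0.224 and 0.689 in WT, so that DH-LMP2A replicate 1 alone exceeded every other library. Without WT replicate 2, the log2 fold change of C4b against WT went from -0.09 to 1.13 in LCDD and from 0.92 to 2.19 in DH-LMP2A (unadjusted p = 0.0418, adjusted p = 0.324). C2 ran from 0.754 to 1.73 CPM in LCDD, 0.799 to 3.55 in DH-LMP2A and 0.134 to 3.20 in WT. Their edgeR adjusted p was 0.741 or more in C4b and 0.702 or more in C2 over the 3 comparisons. Both are uncertain, since 22.7% of the C4b windows also occur in C4a and 37% of those of C2 in the readthrough gene Gm20547, which had 0 counts in all libraries.

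C3, on which all complement pathways converge, was variable within each genotype. It had 9.39, 61.1, 25.1 and 12.1 CPM in LCDD, 14.5, 12.6, 7.93 and 49.3 in DH-LMP2A, and 29.9, 27.4, 5.36, 9.53 and 8.35 in WT. The highest libraries, LCDD replicate 2 and DH-LMP2A replicate 4, carry different title codes. The difference between LCDD and DH-LMP2A was 0.35 ± 0.72 (log2, SE; edgeR adjusted p = 0.888), an error too wide to place it. Cfb (factor B, which binds C3b) ran from 1.08 to 4.22 CPM in LCDD, 0.671 to 2.62 in DH-LMP2A and 1.07 to 5.31 in WT, with 69.9% of its windows also in Gm20547. Cfp (properdin, which stabilises the alternative pathway enzyme) had 6.88 to 13.03 CPM in LCDD, 7.29 to 13.6 in DH-LMP2A and 4.61 to 10.6 in WT. Its log2 fold changes against WT were 0.53 ± 0.28 in LCDD (adjusted p = 0.512) and 0.50 ± 0.28 in DH-LMP2A (adjusted p = 0.49). Without WT replicate 2, they were 0.71 ± 0.25 in LCDD (edgeR unadjusted p = 0.0137, adjusted p = 0.181) and 0.70 ± 0.25 in DH-LMP2A (unadjusted p = 0.0157, adjusted p = 0.232).

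C8g, the gamma chain of C8, was the one terminal component among the members that passed the filter, with 0.280 to 1.76 CPM over the 13 libraries. The receptors of the anaphylatoxins C3a and C5a were also low. C3ar1 had 0.108 to 1.62 CPM in LCDD, 0.114 to 0.524 in DH-LMP2A and 0.360 to 0.926 in WT, and C5ar1 had 0.197 to 1.62 in LCDD, 0.285 to 1.18 in DH-LMP2A and 0.440 to 2.96 in WT. The groups overlapped for all 3 genes, and edgeR's adjusted p was at least 0.51 for each in every comparison.

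Among the membrane regulators, Cd59a and Cd55 varied with the title code in every genotype. Cd59a had 102, 161, 328 and 329 CPM in LCDD, 148, 271, 330.5 and 365 in DH-LMP2A, and 178, 427, 329.5, 361 and 259 in WT. Cd55, which dissociates the enzymes that cleave C3, had 37.3, 69.9, 179.6 and 147 CPM in LCDD, 62.0, 153, 192 and 223 in DH-LMP2A, and 117, 125, 249, 239 and 167 in WT. The first code gave the lowest library of each genotype for both genes, as it did for the podocyte sum (6973, 15634 and 14646 CPM), whose part was not tested. LCDD was lower than DH-LMP2A under all 4 codes, with log2 fold changes of -0.28 ± 0.39 for Cd59a (edgeR adjusted p = 0.823) and -0.54 ± 0.47 for Cd55 (adjusted p = 0.705). The adjusted p was 0.265 and 0.255 with the block.

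Cr1l encodes Crry, the rodent regulator of C3 on cell surfaces, and was the steadiest of the abundant members. It had 175, 161, 161 and 168 CPM in LCDD, 140.3, 153, 149.8 and 160.5 in DH-LMP2A, and 149, 162, 197, 187 and 180.0 in WT. The LCDD libraries were above those of DH-LMP2A by a narrow margin, and the difference of 0.14 ± 0.10 did not pass the test (edgeR adjusted p = 0.64). Cfi (factor I, which degrades C3b) had 0.161 to 1.35 CPM in LCDD, 0.285 to 2.39 in DH-LMP2A and 0.134 to 1.81 in WT, with the first code giving the highest library in DH-LMP2A and WT.

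Clu (clusterin, a secreted chaperone that blocks the terminal complex) had 94.7, 126, 76.2 and 57.3 CPM in LCDD, 62.5, 25.8, 20.8 and 31.5 in DH-LMP2A, and 149, 144, 41.5, 47.9 and 82.6 in WT. Of the DH-LMP2A libraries, replicate 1 lay inside the LCDD range and the other 3 lay below it. Clu differed between LCDD and DH-LMP2A by 1.33 ± 0.45 (log2, SE; edgeR adjusted p = 0.187), and by 1.34 ± 0.36 with the block (adjusted p = 0.0556), with the same sign under all 4 codes. It passed the threshold with a proximal tubule covariate (1.52 ± 0.37, adjusted p = 0.0298). Against WT the values were -1.40 ± 0.44 for DH-LMP2A (adjusted p = 0.2, called in 3 of 20 alternatives, among them DESeq2 with adjusted p = 0.0408) and -0.07 ± 0.42 for LCDD (adjusted p = 0.98). The 3 single-mouse WT libraries were below both pooled WT libraries.

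F3 encodes tissue factor, the starter of coagulation, which podocytes and other glomerular cells can express. It lies at chr3:121723537-121735048 on the plus strand. F3 had 6.56, 11.5, 23.5 and 29.8 CPM in LCDD, 17.4, 41.4, 34.2 and 61.9 in DH-LMP2A, and 13.5, 28.7, 24.8, 27.8 and 20.6 in WT. The groups overlapped, but under each of the 4 codes LCDD was below DH-LMP2A, and the first code gave the lowest library of every genotype. The log2 fold change of LCDD against DH-LMP2A was -1.12 ± 0.45 (edgeR adjusted p = 0.292) without the block and -1.20 ± 0.26 (adjusted p = 0.0257) with it. It was also called with a proximal tubule covariate (-1.36 ± 0.33, adjusted p = 0.0298), and between DH-LMP2A and WT it was called with that covariate alone (1.48, adjusted p = 0.0398).

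The other coagulation factors were low. F10 (factor X) had 0.498, 1.39, 0.431 and 0.236 CPM in LCDD, 0.0748, 0.259, 0.285 and 0.179 in DH-LMP2A, and 0.841, 2.96, 0.0800, 0.224 and 0.243 in WT. LCDD was above DH-LMP2A under all 4 codes, but several values lay near the floor, and the difference of 1.69 ± 0.99 did not pass the test (edgeR adjusted p = 0.52). Without WT replicate 2, the log2 fold change of F10 against WT went from -0.38 to 0.81 in LCDD, and from -2.07 (unadjusted p = 0.0498) to -0.88 (unadjusted p = 0.272) in DH-LMP2A. F13a1 (the catalytic chain of factor XIII, also a macrophage product) had 2.91 to 10.5 CPM in LCDD, 2.15 to 4.94 in DH-LMP2A and 1.72 to 5.72 in WT, with LCDD replicate 2 above all other libraries.

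Of the 6 members grouped as coagulation inhibitors or genes of the plasmin system, 3 passed the filter: Tfpi, Pros1 and Gas6. These 3 were abundant, and none of them was called. Tfpi (tissue factor pathway inhibitor) had 91.1, 66.1, 50.0 and 57.4 CPM in LCDD, 56.4, 50.3, 49.6 and 50.4 in DH-LMP2A, and 68.6, 38.0, 67.9, 68.4 and 66.3 in WT. WT replicate 2 was the lowest of the 13 libraries for Tfpi, and the other 4 WT libraries lay within 3 CPM of each other. LCDD was above DH-LMP2A by 0.36 ± 0.20 (log2, SE; edgeR adjusted p = 0.501). Pros1 had 254, 231, 337 and 209 CPM in LCDD, 213, 224, 258 and 306 in DH-LMP2A, and 259, 301, 505, 427 and 332 in WT. Its 2 highest libraries were single WT mice, and against WT the log2 fold changes were -0.50 ± 0.21 in LCDD (adjusted p = 0.335) and -0.54 ± 0.21 in DH-LMP2A (adjusted p = 0.31). Gas6 had 306, 256, 154 and 141 CPM in LCDD, 329, 205, 159 and 119.5 in DH-LMP2A, and 288, 247, 215, 199 and 271 in WT. The first code gave the highest Gas6 library in all 3 genotypes, the reverse of Cd59a, Cd55 and F3, and LCDD and DH-LMP2A differed by 0.08 ± 0.31 (adjusted p = 0.947).

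Outside the 33 genes, lists of 35 further complement genes, 35 coagulation genes and 13 fibrinolysis genes were examined, of which 18, 22 and 11 were tested. Between LCDD and DH-LMP2A, edgeR called 3 complement genes, all lower in LCDD (Masp2, C1s2 and Colec12), 0 coagulation genes and 1 fibrinolysis gene, Serpine2, which was higher. The same fit called 2.00% of all genes. Of the coagulation genes 4 had an unadjusted p under 0.05, where 13.1% of all genes did, and DESeq2 called 8 genes of the 3 lists together, where it called 4.86% of all genes. With the block, which called 6.10% of all genes, 3 coagulation genes were called, F8 and F2r (a thrombin receptor) being higher and Tyro3 (a TAM receptor of Gas6 and protein S) lower in LCDD, and Plau (urokinase) was also called higher. The median log2 fold changes were -0.28, -0.15 and 0.36, against -0.01 over all tested genes. Against WT, 1 complement gene was lower in LCDD (Colec12) and 1 coagulation gene was lower in DH-LMP2A (F8). In these comparisons with WT, edgeR called 1.84% of all genes for LCDD and 0.627% for DH-LMP2A.

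Masp2 encodes the protease that cleaves C4 and C2 in the lectin pathway. It had 0.0767, 0.150, 0.161 and 0.236 CPM in LCDD, 1.23, 3.37, 5.25 and 6.04 in DH-LMP2A, and 0.129, 0.0617, 1.44, 1.74 and 0.973 in WT. The LCDD libraries were near or under the floor and below all of DH-LMP2A, while WT fell apart into its 2 pools, which were at the LCDD level, and its 3 single mice. Masp2 fell in LCDD relative to DH-LMP2A by a log2 fold change of -4.62 ± 0.89 (edgeR adjusted p = 0.0196), and the call was lost in 5 of 20 alternatives, without LCDD replicate 1 or 2 or DH-LMP2A replicate 2, 3 or 4 (adjusted p up to 0.0692). Masp1 and Masp2 thus both had their highest levels in DH-LMP2A.

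Colec12 encodes a scavenger receptor with a collectin domain. It had 22.1, 12.2, 21.7 and 25.6 CPM in LCDD, 37.4, 67.5, 86.3 and 109.9 in DH-LMP2A, and 90.0, 149, 180.2, 183 and 124 in WT. All LCDD libraries were below all others. Colec12 fell in LCDD against DH-LMP2A by a log2 fold change of -1.88 ± 0.33 (edgeR adjusted p = 0.0114) and against WT by one of -2.83 ± 0.33 (adjusted p = 0.000775). The first call held in all 20 alternatives and the second in 19, the exception being a Y-linked covariate (adjusted p = 0.0531).

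Serpine2 (protease nexin-1, an inhibitor of thrombin and urokinase) had 2367, 1138, 844 and 1255 CPM in LCDD, 802, 489, 464 and 538 in DH-LMP2A, and 669, 977, 757, 665 and 671 in WT. All LCDD libraries were above all DH-LMP2A libraries, and LCDD replicate 1 was the highest. Serpine2 rose in LCDD against DH-LMP2A by 1.29 ± 0.30 (adjusted p = 0.0446), and that call was lost in 9 of 20 alternatives, including those without LCDD replicate 1, 2 or 4 or DH-LMP2A replicate 2, 3 or 4 (adjusted p up to 0.157).

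F8 encodes factor VIII, which endothelial cells make. It had 192, 193, 91.0 and 82.9 CPM in LCDD, 65.4, 67.9, 39.9 and 47.4 in DH-LMP2A, and 199.8, 81.4, 186, 175 and 220.5 in WT. DH-LMP2A was below both other genotypes in every library. F8 fell in DH-LMP2A against WT by a log2 fold change of -1.64 ± 0.33 (edgeR adjusted p = 0.0479), a call that was lost in 11 of 20 alternatives, among them those without any 1 DH-LMP2A library, without WT replicate 3, 4 or 5, and without the libraries of the first code. LCDD against DH-LMP2A gave 1.34 ± 0.34 (adjusted p = 0.0691) without the block and 1.29 ± 0.22 (adjusted p = 0.00949) with it. The 8 endothelial markers summed to 5060 to 11646 CPM in LCDD, 3593 to 9429 in DH-LMP2A and 7301 to 11920 in WT, with none at 0 in all libraries, and their part in the F8 result was not tested.

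**Figure D5:**
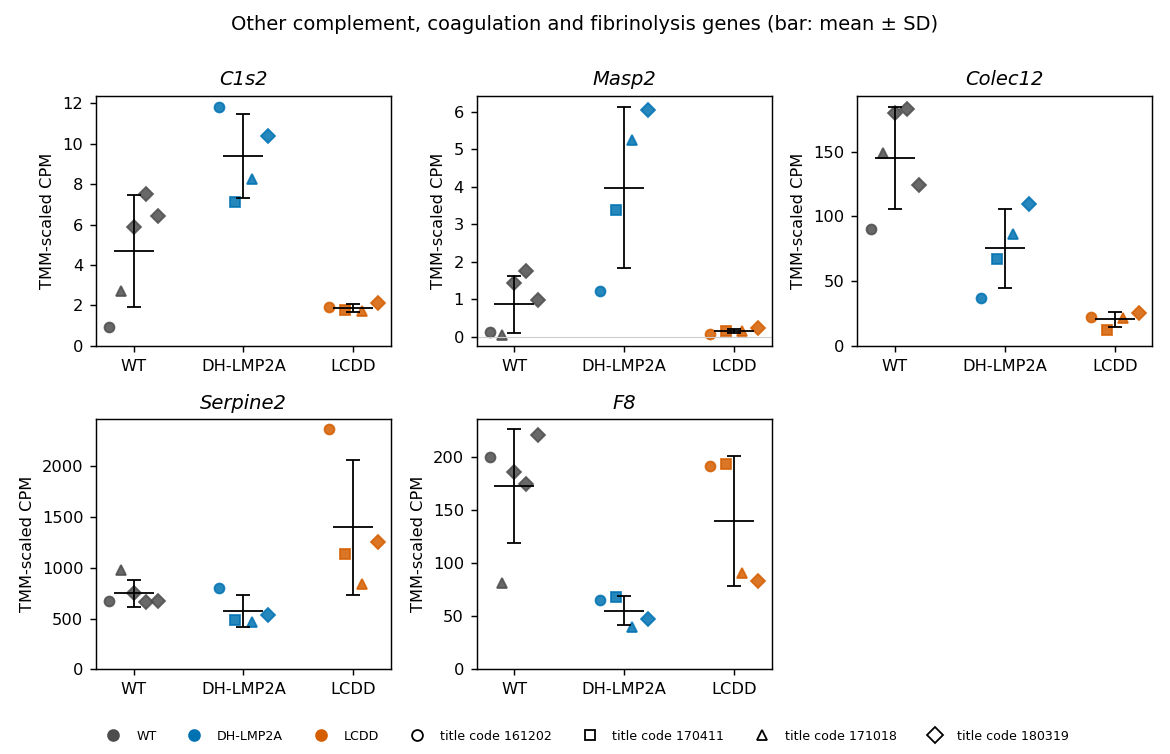
TMM-scaled CPM of 5 related genes outside the 33, in each library (points, with a symbol for the title code) with the mean ± SD per genotype. LCDD is below DH-LMP2A in every library for C1s2, Masp2 and Colec12 and above it in every library for Serpine2 and F8.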

How the data were processed

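The authors sequenced stranded poly(A) libraries from both ends, per the labels' protocols, and deposited a table of read counts per gene made with featureCounts from Subread 1.5.0-p3 after alignment with STAR 2.4.0a to mm10 (GRCm38), per the submitters' processing notes, which also list DESeq2. The deposited table gives each gene's exon length, another column used here for RPKM. The gene annotation, strand setting and treatment of reads with several matches are not given in the sources used here.

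The test was that of edgeR 4.0.16 (R 4.3.3). Genes were filtered with filterByExpr (minimum count 10, by genotype), which left 16738 and removed 30220, and all 13 libraries entered one quasi-likelihood fit with TMM factors and 1 coefficient per genotype. Benjamini-Hochberg adjustment covered all tested genes, and a gene was called at an adjusted p under 0.05. CPM values are TMM-scaled, with a prior count of 2 added on the log2 scale. The floor of 3 counts covers counting error only. The 22 pairs of libraries of one genotype differed by 12.6 to 234 chi-square per degree of freedom, so none looked deposited a second time. The fit was tested on simulated data.

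The title code served as a replicate block in a fit of all libraries, so the WT libraries also entered the block terms and the spread. Deviations from the genotype mean of same-code libraries correlated at 0.153 to 0.593 in the 4 pairs of LCDD and DH-LMP2A. These were taken as paired because every value was over a chosen limit of 0.1. The values were -0.165 to 0.4 for LCDD and WT and -0.159 to 0.568 for DH-LMP2A and WT (5 pairs each). Libraries of different codes were not used as a reference, so how far the code itself sets these values was not tested. Alternatives were DESeq2 1.42.0, other scaling and filters, fits of 2 genotypes, covariates for proximal tubule and Y-linked genes, and left-out libraries. Leaving out the first title code, leaving out WT replicate 2 from every comparison, summing close relatives, and the PU.1 motif were chosen after seeing the data.

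All 33 members are named by role. Of the wider lists, the 6 genes with the smallest p among those called were selected, plus any called in the same direction against 2 genotypes; 1 of them is not reported here, and F2r, Tyro3 and Plau are named outside that rule, after their values were seen. The members and lists were chosen with earlier results of these data known. Proteins and 10 members' promoters were not used here.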

Additional observations from a re-analysis of the deposited data

Results flagged for a closer look

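A library was marked where it lay far from the others of its genotype by Dixon's test, in log2 CPM. Of 78 groups of values examined, 9 were marked, where chance gives about 1 in 20, or 3.9.

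WT replicate 2 accounted for 7 of the 9. It had 4.798 for C1qa (0.2205 to 0.8703 in the other WT libraries), 5.001 for C1qb (0.1701 to 0.9474) and 4.824 for C1qc (0.007208 to 0.7363). It also had 6.505 for C1ra (5.14 to 5.404), 7.867 for C1s1 (7.101 to 7.308) and 7.374 for Serping1 (6.578 to 6.75). For Tfpi it was the low library, at 5.253 against 6.054 to 6.103. These 6 high genes are the recognition chains, a protease pair and the inhibitor of the C1 complex.

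DH-LMP2A replicate 1 accounted for the other 2. It had 0.9108 for C1qb (-1.504 to -1.138 in the other DH-LMP2A libraries) and 5.821 for Tfpi (5.635 to 5.659).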

How the results depend on the processing

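C1s1 was called higher in LCDD than in DH-LMP2A in all 21 alternatives (1.30 to 1.55, adjusted p from 6.2e-09 to 0.0235). Of 28 results of single genes called in at least 1 fit, 2 changed sign, both against WT and neither called with all libraries: Serping1 in LCDD with a Y-linked covariate (-0.10) and C1s2 in LCDD without the single-mouse WT libraries (0.0478). Members called in no fit were followed without WT replicate 2, where 8 of 26 changed sign in LCDD and 2 (Serping1 and Cfb) in DH-LMP2A, but not through the other alternatives. Numbers of calls moved more, and the cause was not tested. Between LCDD and DH-LMP2A, 334 genes were called, against 812 with DESeq2, 213 with only these genotypes in the fit, 1021 with the replicate block, 950 with a proximal tubule covariate, and 113 to 484 without 1 library. Members called (1) were 2 with DESeq2, 3 with the block, 2 with a Y-linked covariate, 4 with the tubule covariate, 2 without the first title code, 2 without WT replicate 2 in the whole fit, and 1 to 1 without 1 library. The number of all genes called is not given here for the Y-linked covariate or without the first code or WT replicate 2. The member counts of those fits were thus not set against a share of all genes. Genes called in the 3 wider lists (4) were 8 with DESeq2, 8 with the block, 8 with the tubule covariate, and 1 to 6 without 1 library.

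Between LCDD and WT, 308 genes were called, against 726 with DESeq2, 185 with only these genotypes, 536 with the block, 54 without the single-mouse WT libraries, 23 with the Y-linked covariate, and 159 to 441 without 1 library. Members called (0) were 0 to 2 without 1 library, the 2 being C1s1 and Serping1 without WT replicate 2. Wider genes called (2) were 4 with DESeq2, 1 with only these genotypes, 1 without single mice, 0 with the Y-linked covariate, and 1 to 3 without 1 library.

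Between DH-LMP2A and WT, 105 genes were called, against 458 with DESeq2, 562 with the block, 69 without single mice, 36 with the Y-linked covariate, 579 with the tubule covariate, 392 without the first title code, and 29 to 407 without 1 library. Members called (0) were 4 with DESeq2, 3 with the block (Masp1 higher by 2.83, C1s1 at -0.84 and Clu at -1.60), 3 with the tubule covariate, 1 without the first title code, and 0 to 1 without 1 library. Wider genes called (1) were 0 with a filter of 1 CPM, 3 with the block, 0 with the Y-linked covariate, 6 with the tubule covariate, and 0 to 4 without 1 library. Depth limits the 7 members under the filter. It also limits Masp1, Masp2, F10, C1qa, C1qc, C3ar1, Cfi and C2, whose lowest libraries were near or under 3 counts. The lowest libraries of C4b, C5ar1, C1qb and C8g had 5 to 7 counts.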
